A study of Mus musculus with 4 samples.

Results

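The genes described here are 10 members of the insulin-like growth factor (IGF) system: the pappalysins Pappa and Pappa2, their inhibitors Stc1 and Stc2, the IGF-binding proteins Igfbp4 and Igfbp5, the ligands Igf1 and Igf2, and the receptors Igf1r and Igf2r. They were picked by symbol from the 32285 genes of the deposited matrices, and Pappa2 was picked because earlier results of these data showed it higher in CA1 pyramidal neurons of mutant mice. All 10 were found. Single-nucleus RNA was counted in frozen hippocampi of 2 wild-type (WT) mice and 2 mice heterozygous for the R87C allele of Cyfip2 (Cyfip2+/R87C knock-in, KI), with 1 library per mouse. The mice were on a C57BL/6N background and, per the study's methods, at postnatal week 28. The treatment label of KI replicate 2 reads R88C while its genotype label places it in the KI group. All libraries carried the same batch label, and the labels do not give the sex of each mouse.

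IGF1 and IGF2 are secreted growth factors that signal through the IGF1 receptor, while the IGF2 receptor takes up IGF2 for degradation. In tissue, most IGF is held by binding proteins. Pappalysins are secreted metalloproteases that cut some of these binding proteins and release the growth factor: PAPP-A cuts IGFBP4 and IGFBP5, and PAPP-A2 cuts IGFBP3 and IGFBP5. Stanniocalcins 1 and 2, encoded by Stc1 and Stc2, bind pappalysins and block them. In the brain, IGF1 supports neuronal growth, synapse formation and myelination, and meningeal and vascular cells are known sources of IGF2.

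The 4 libraries held 73009975 to 80913580 UMIs (unique molecular identifiers, each 1 counted transcript) in 12665 to 16055 barcodes, each standing for a nucleus. After filters, 52016 of 55640 were kept and clustered without the IGF genes, and clusters were named by marker genes. KI was compared with WT in 16 classes with at least 20 nuclei in every library. Levels are given as CPM, the UMIs of a gene per 1000000 UMIs of all genes in that class and library. Granule neurons of the dentate gyrus (DG) made up 2218 to 4282 nuclei per library, from a cluster with 9 of 9 markers raised and another with 6 of 9. CA1 pyramidal neurons made up 1496 to 2455 nuclei, with 7 of 8 markers raised. A cluster of 757 to 1594 nuclei per library, led by Fn1 and Pcdh15 among other genes, had too few markers raised for a cell type name and is called the Fn1 cluster. Per library, 488 to 1632 nuclei stayed in unnamed clusters. Libraries of a pair shared 40 to 67 barcodes. Cyfip2 itself was read at 182, 180, 172 and 171 CPM over all nuclei of WT replicates 1 and 2 and KI replicates 1 and 2. Its level did not pass in any class where it was tested (edgeR quasi-likelihood test, adjusted p = 0.859 over all nuclei), and a point mutation need not alter it, so this does not check the labels.

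Pappa rose in DG granule neurons of KI mice, and the inhibitors Stc1 and Stc2 and the pappalysin substrate Igfbp5 fell in the same class. Whether they moved within the same single nuclei was not tested. Of the 10 genes, 9 passed the low-count filter in this class, with 1 called higher, 3 called lower and 5 not called. Over all genes tested in DG granule neurons, 9.73% were called (4.83% higher and 4.9% lower), and the median log2 fold change was -0.15 over the members and -0.00037 over all genes. Differences were tested with edgeR's quasi-likelihood test on UMIs summed per library, adjusted over all genes of the class.

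Pappa encodes the protease PAPP-A, which is best known as a plasma marker of pregnancy. Its level in DG granule neurons was 5.02 CPM in WT replicate 1 and 4.85 CPM in WT replicate 2, against 63.1 CPM in KI replicate 1 and 61.9 CPM in KI replicate 2. The WT and KI libraries lay far apart, and the replicates of a genotype nearly coincided over the whole class. Within the 2 clusters of the class, described below, KI replicates 1 and 2 were less alike. They had 67.4 and 88.3 CPM in cluster 4 and 15.9 and 19.7 CPM in cluster 0, and cluster 4 held 90.8% and 60.2% of their granule nuclei. The log2 fold change was 3.80 ± 0.14 (SE, edgeR adjusted p = 0.00088), and it stayed between 3.75 and 3.84 when any 1 library was left out. Counting nuclei gave the same picture. Nuclei were thinned to 2000 UMIs and shallower ones left out, which kept 3992 of 4282 and 3158 of 3268 granule nuclei of WT replicates 1 and 2 and 2436 of 2471 and 2097 of 2218 of KI replicates 1 and 2. Of the nuclei kept, 0.977% (95% exact interval 0.696 to 1.33%) and 1.04% (0.720 to 1.46%) in WT had a Pappa UMI, against 11.002% (9.79 to 12.3%) and 10.1% (8.81 to 11.4%) in KI. Without thinning, the shares of all granule nuclei were 1.61% and 1.65% in WT and 21.0% and 17.4% in KI, at median depths of 3719, 4156, 4404 and 3973 UMIs. In CA1 pyramidal neurons, where Pappa was near its lowest, thinned shares were 0.116 to 0.538%, at median depths of 5048 to 6776 UMIs. Intervals cover counting error only.

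Stc1 was low in DG granule neurons of WT mice and lower in KI. It was read at 4.68 and 5.71 CPM in WT (83 and 86 UMIs), against 0.252 and 1.35 CPM in KI (3 and 13 UMIs). The log2 fold change was -2.64 ± 0.54 (edgeR adjusted p = 0.032). Stc2 was read at 3.22 and 3.25 CPM in WT (57 and 49 UMIs), against 0.419 and 0.518 CPM in KI (5 UMIs in each library), a log2 fold change of -2.64 ± 0.36 (edgeR adjusted p = 0.010). It passed the low-count filter only through the WT libraries, where it was high, so this adjusted p is weak support. For both inhibitors, the 2 KI libraries lay below the 2 WT libraries, and the libraries of 63.9% of all genes tested in this class did not overlap. Both calls rested on few UMIs and were lost when either WT library was left out, where calls over all genes of the class also fell far. The log2 fold change of Stc1 was then -2.76 without WT replicate 1 and -2.48 without WT replicate 2. That of Stc2 was -2.65 and -2.64. The Stc1 value also moved with the KI library, to -1.83 without KI replicate 1 and -4.15 without KI replicate 2.

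Igfbp5, a binding protein that can hold IGF at the cell surface and matrix, was read at 52.8 and 55.01 CPM in WT granule neurons and at 6.46 and 12.7 CPM in KI. The log2 fold change was -2.39 ± 0.26 (edgeR adjusted p = 0.0056). After thinning, 9.44% (8.55 to 10.4%) and 10.6% (9.52 to 11.7%) of WT granule nuclei had an Igfbp5 UMI, against 1.52% (1.07 to 2.09%) and 2.53% (1.90 to 3.29%) of KI granule nuclei. In CA1 pyramidal neurons the thinned shares were 0.739 to 2.43%, so the KI granule neurons were near a class with little Igfbp5.

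The other members did not pass in DG granule neurons. Pappa2 was read at 3.05, 3.79, 5.54 and 4.87 CPM in WT replicates 1 and 2 and KI replicates 1 and 2 (log2 fold change 0.75 ± 0.25, edgeR adjusted p = 0.11). Igfbp4, a main substrate of PAPP-A, was at 3.44, 4.05, 4.45 and 6.22 CPM (0.64 ± 0.25, edgeR adjusted p = 0.16). Igf1r was at 179 and 183 CPM in WT, against 142 and 155 CPM in KI (-0.15 ± 0.09, edgeR adjusted p = 0.32). Igf2r and Igf1 had log2 fold changes of -0.11 ± 0.14 and -0.31 ± 0.35, and Igf2 was under 0.42 CPM in every library and did not pass the filter.

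**Figure D1:**
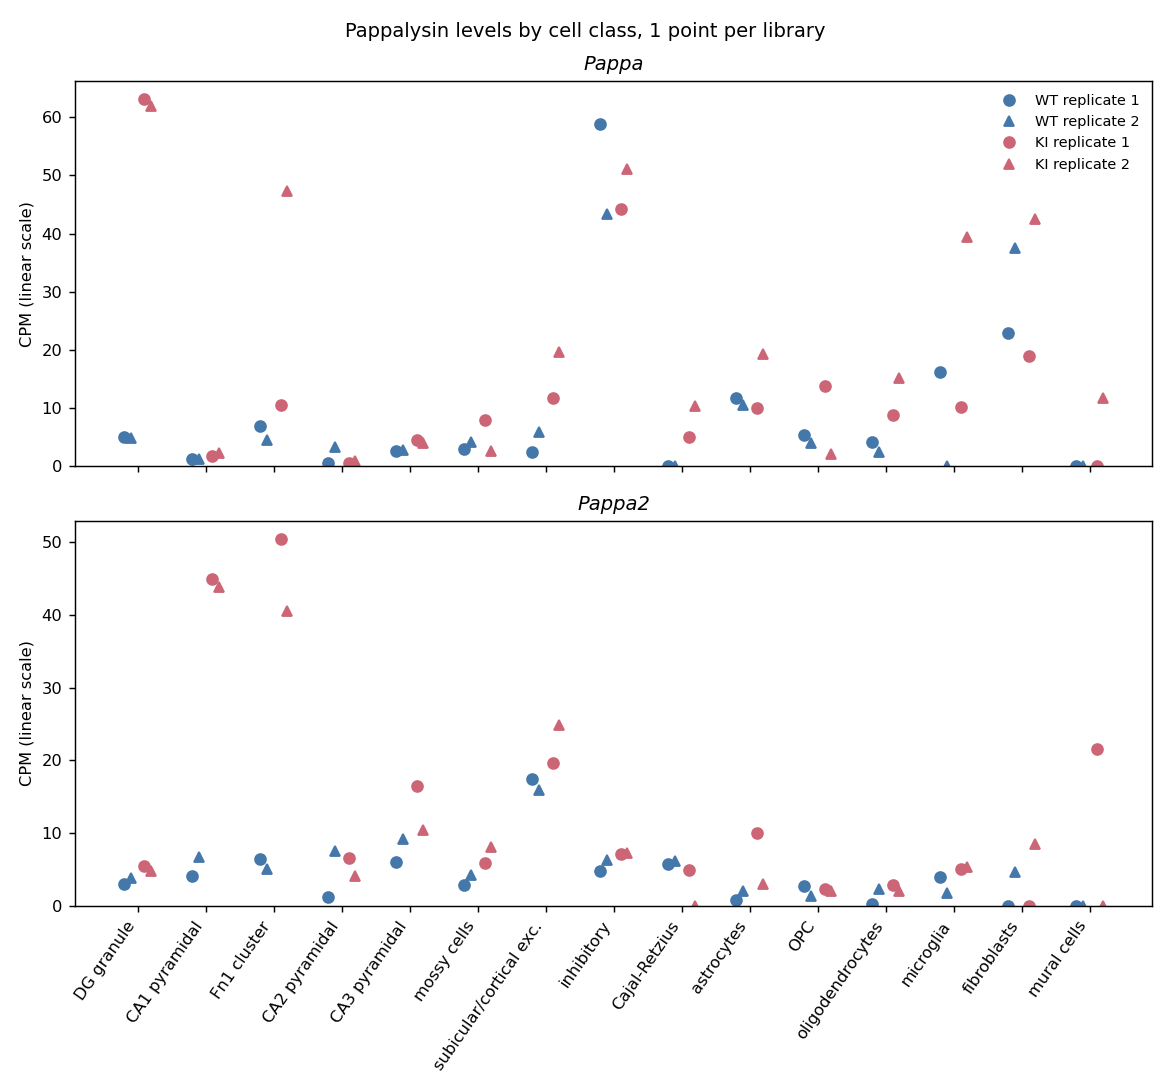
CPM of Pappa (top) and Pappa2 (bottom) by cell class on a linear scale, with 1 point per library (blue WT, red KI; circles replicate 1, triangles replicate 2). Pappa of the KI libraries stood at 61.9 and 63.1 CPM in DG granule neurons against 4.85 and 5.02 in WT, and Pappa2 at 43.8 and 44.9 CPM in CA1 pyramidal neurons against 4.12 and 6.76.

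DG granule neurons came from 2 clusters, numbered 0 and 4, which held different shares of each genotype. Cluster 4 held 2.48% (95% exact interval 2.03 to 2.99%) and 3.24% (2.66 to 3.91%) of the granule nuclei of WT replicates 1 and 2, and 90.8% (89.6 to 91.9%) and 60.2% (58.2 to 62.3%) of those of KI replicates 1 and 2. Pappa and the other IGF genes took no part in clustering, and levels within the clusters are given as a description. Cluster 4 had 6 of 9 granule markers raised and was led by Mylk3, Gpnmb and Best3 among other genes.

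In cluster 4, Pappa was high in both genotypes. The 106 nuclei of each WT library there had 62.8 CPM (31 UMIs) and 53.4 CPM (27 UMIs), and the 2244 and 1336 nuclei of the KI libraries had 67.4 and 88.3 CPM. In cluster 0, Pappa was at 3.37 and 3.16 CPM in WT, against 15.9 and 19.7 CPM in KI. The few WT granule nuclei of cluster 4 thus held 31 of 89 and 27 of 73 of the Pappa UMIs of all WT granule nuclei. They shared 0 barcodes with any other library, and their median doublet scores were 0.047 and 0.040, against 0.051 and 0.041 in the KI libraries.

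Igfbp5 was lower in KI in either cluster. In cluster 0 it was at 53.6 and 56.3 CPM in WT, against 11.9 and 15.9 CPM in KI, and in cluster 4 at 26.3 and 17.8 CPM in WT (13 and 9 UMIs), against 5.95 and 10.6 CPM in KI. Stc1 in cluster 4 was at 6.07 and 3.96 CPM in WT, from 3 and 2 UMIs, and at 0.183 and 0.168 CPM in KI, from 2 and 1 UMIs. Stc2 in cluster 4 rested on 1 and 0 UMIs in WT and 2 UMIs in each KI library. In cluster 0, which held most of their WT UMIs, Stc1 was at 4.64 and 5.77 CPM in WT (80 and 84 UMIs), against 0.996 and 3.24 CPM in KI (1 and 12 UMIs). Stc2 there was at 3.25 and 3.37 CPM in WT (56 and 49 UMIs), against 2.99 and 0.809 CPM in KI (3 UMIs in each library), so KI replicate 1 was near the WT level within this cluster, from 3 UMIs. Pappa and Igfbp5 thus differed in how they followed the clusters: the WT nuclei of cluster 4 had Pappa near the KI level and Igfbp5 between the WT level of cluster 0 and the KI levels.

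**Figure D2:**
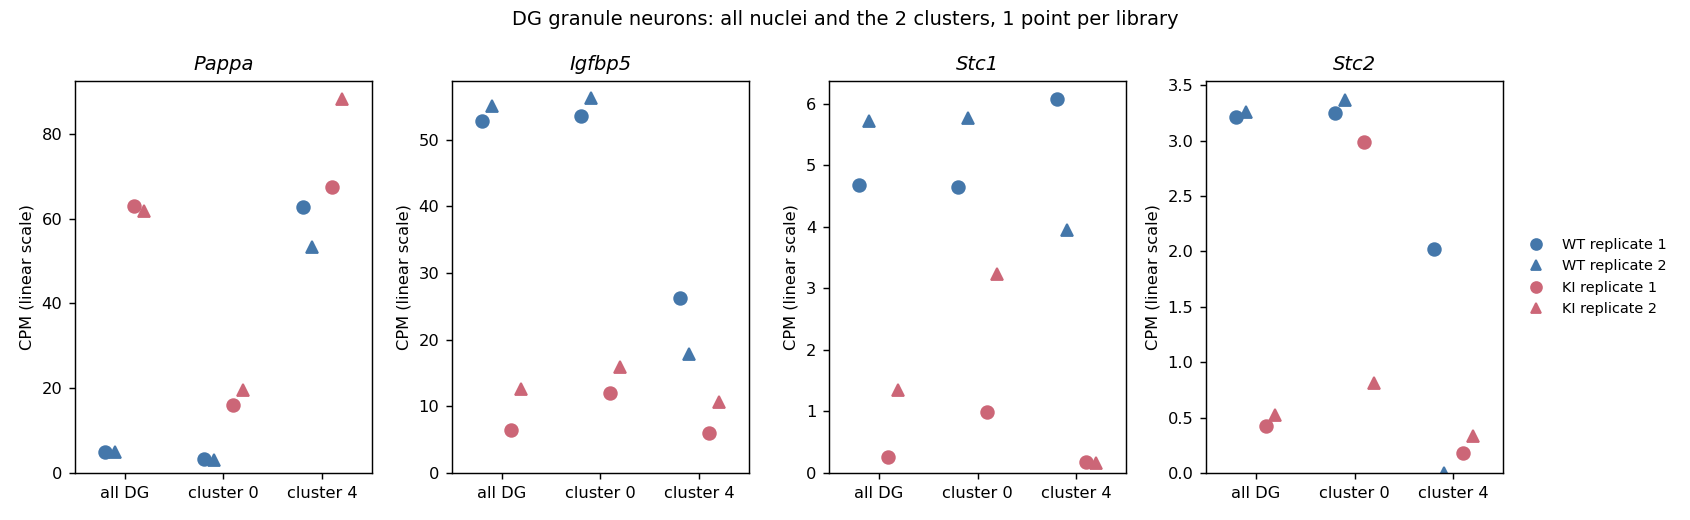
CPM of Pappa, Igfbp5, Stc1 and Stc2 in all DG granule neurons and in their clusters 0 and 4, with 1 point per library on linear scales (blue WT, red KI; circles replicate 1, triangles replicate 2). The WT points of Pappa rise from 3.16 and 3.37 CPM in cluster 0 to 53.4 and 62.8 CPM in cluster 4, while Igfbp5 is lower in KI in both clusters.

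Markers of other cell types in the granule nuclei also moved with genotype. The summed level of the 12 inhibitory neuron markers was 1768 and 1681 CPM in WT, against 1351 and 1287 CPM in KI. Of the markers of the interneurons with the most Pappa, the 7 of Sst interneurons summed to 134.9 and 165 CPM in WT, against 83.8 and 98.3 CPM in KI, and the 7 of Lamp5 interneurons to 57.9 and 59.2 CPM in WT, against 71.1 and 82.0 CPM in KI. The inhibitory and Sst lists were thus lower in KI and the Lamp5 list higher. The 8 markers of CA2 pyramidal neurons, the class with the highest Stc2 among well-sampled classes, summed to 264 and 279 CPM in WT, against 85.5 and 139 CPM in KI. The 11 astrocyte markers summed to 1114 and 1089 CPM in WT, against 627 and 831 CPM in KI, and the 8 OPC (oligodendrocyte precursor) markers to 81.3 and 91.3 CPM in WT, against 232 and 164 CPM in KI. The 9 granule markers summed to 3921 and 3613 CPM in WT, against 2990 and 3547 CPM in KI. All genes of these lists had a UMI in each library, except that 6 of the 7 Sst markers had one in KI replicate 2, and their part in the differences above was not tested.

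The genotype effect in DG granule neurons was set against that in CA3 pyramidal neurons and in inhibitory neurons, by testing the interaction of class and genotype with each library fitted as its own level. The CA3 class was itself made of 7 clusters split by genotype: in one of them WT replicates had 2 and 1 nuclei against 405 and 300 in KI, in another 369 and 138 against 1 and 3, and in the third 292 and 262 against 5 and 56. In the 3 clusters with at least 20 nuclei of every library, which held 27.0 to 34.7% of the CA3 nuclei of a library, Pappa was at 9.53 and 6.90 CPM in WT, against 3.76 and 4.56 CPM in KI (18, 13, 7 and 6 UMIs), a description added after the data were seen. Over all genes, 9.89% differed between DG and CA3 and 8.7% between DG and inhibitory neurons. The log2 fold change of Pappa was larger in DG by 3.09 ± 0.32 than in CA3 (edgeR adjusted p = 3.06e-05) and by 3.79 ± 0.17 than in inhibitory neurons (edgeR adjusted p = 2.08e-08). That of Igfbp5 differed by -1.91 ± 0.27 from CA3 (edgeR adjusted p = 0.00044) and by -2.18 ± 0.20 from inhibitory neurons (edgeR adjusted p = 1.19e-05). Stc1 differed from CA3 by -2.38 ± 0.69 (edgeR adjusted p = 0.045). This call was lost whichever library was left out (edgeR adjusted p = 0.061 to 0.214) and with doublets kept (0.054). Stc2 (-2.28 ± 0.69, edgeR adjusted p = 0.055) and the other members did not pass against CA3. With nuclei assigned one by one from their own markers, the Pappa difference from CA3 was 1.28 and did not pass (edgeR adjusted p = 0.12). Stc2 passed against CA3 in that setting (edgeR adjusted p = 0.025), with library totals (0.048), with no low-count filter (0.012), with doublets kept (0.016) and without KI replicate 1 (0.029). Igf1r, at 0.32 ± 0.11 (edgeR adjusted p = 0.10), passed with no low-count filter (0.044) and without KI replicate 2 (1.64e-05). Between CA3 and inhibitory neurons, where 2.83% of all genes differed, none of the 9 members tested passed by edgeR or DESeq2. Pappa, with a difference of 0.72 ± 0.32 (edgeR adjusted p = 0.30), was the 1 member under an unadjusted edgeR p of 0.05. With nuclei assigned one by one, where 0.389% of all genes differed, the Pappa difference between CA3 and inhibitory neurons was 2.33 ± 0.33 and passed (edgeR adjusted p = 0.023). Whether Pappa in CA3 was called apart from DG or from inhibitory neurons thus depended on how nuclei were assigned. The nuclei assigned to CA3 one by one included 2622 of the CA3 clusters, 600 of the DG granule clusters and 354 of the Fn1 cluster. The part of the DG and Fn1 cluster nuclei in these Pappa values was not tested.

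**Figure D3:**
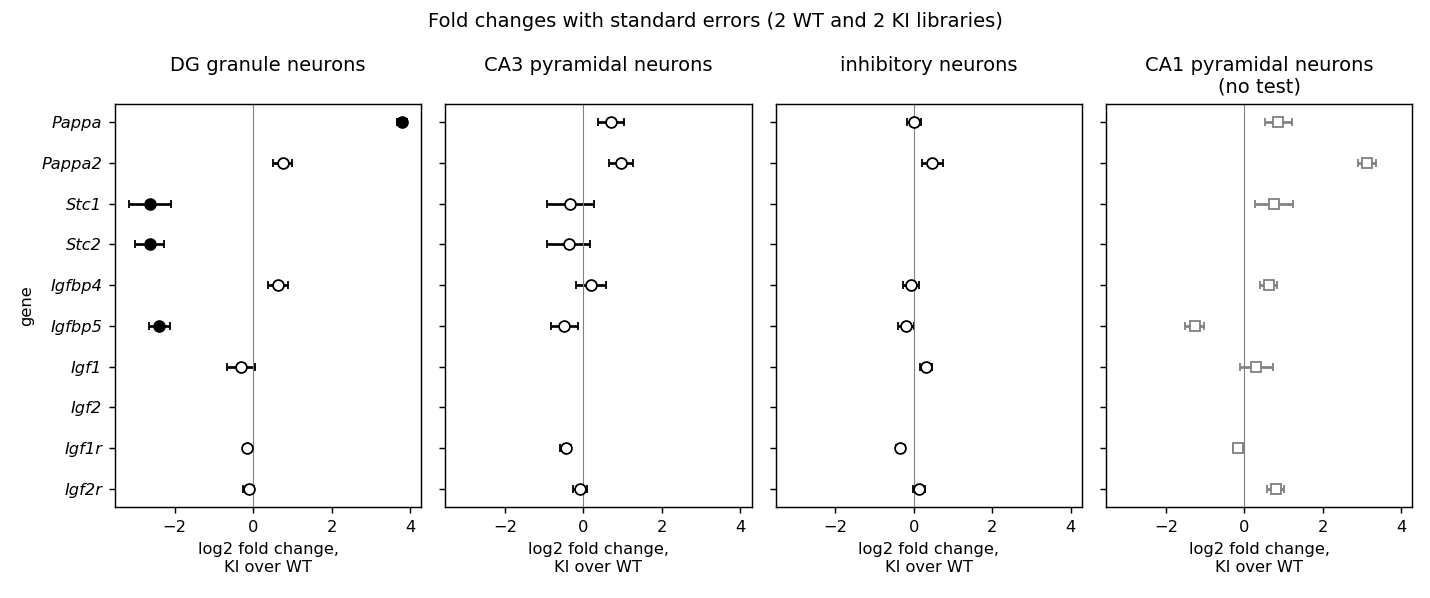
Log2 fold change, KI over WT, with its standard error for each gene that passed the low-count filter in 4 neuronal classes (2 WT and 2 KI libraries). Filled circles passed an adjusted p of 0.05, open circles did not, and the grey squares of CA1 pyramidal neurons carry no test because that contrast chose the genes. The filled points are Pappa at 3.80 and Stc1, Stc2 and Igfbp5 between -2.64 and -2.39, all in DG granule neurons.

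Pappa2 encodes the related protease PAPP-A2. In CA1 pyramidal neurons it was read at 4.12 and 6.76 CPM in WT, against 44.9 and 43.8 CPM in KI, with a log2 fold change of 3.14 ± 0.22. After thinning, 0.660% (0.378 to 1.07%) and 0.696% (0.360 to 1.21%) of WT nuclei had a Pappa2 UMI, against 7.93% (6.61 to 9.42%) and 6.81% (5.65 to 8.12%) in KI. Without thinning these shares were 2.08%, 3.74%, 21.4% and 18.2%. The thinned share in DG granule neurons, a class with little Pappa2, was 0.526 to 1.60%. These values are a description, since the CA1 contrast chose the genes. In the same contrast 7.58% of all genes were called and 60.3% had libraries that did not overlap. Marker lists also moved with genotype in these nuclei: the 8 CA1 markers summed to 1275 and 1265 CPM in WT, against 1099 and 947 CPM in KI, the 8 OPC markers to 75.5 and 77.9 CPM in WT, against 134 and 131 CPM in KI, the 10 endothelial markers to 23.5 and 23.4 CPM in WT, against 44.3 and 59.1 CPM in KI, and the 7 Sst interneuron markers to 126 and 144 CPM in WT, against 56.4 and 65.4 CPM in KI. Their part in the Pappa2 level was not tested. Igfbp5 was at 11.2 and 10.1 CPM in WT, against 3.31 and 5.03 CPM in KI, Igf2r at 19.2, 18.0, 22.5 and 38.8 CPM, and Pappa at 1.21, 1.20, 1.83 and 2.33 CPM. Pappa was thus near its lowest in CA1, where Pappa2 was high in KI.

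In the Fn1 cluster Pappa2 took nearly the CA1 values, at 6.49 and 5.14 CPM in WT, against 50.4 and 40.5 CPM in KI (log2 fold change 3.05 ± 0.23). Thinned shares were 0.662% (0.215 to 1.54%) and 0.802% (0.347 to 1.57%) in WT and 6.23% (4.90 to 7.80%) and 5.97% (4.85 to 7.26%) in KI. By their own markers, 293, 320, 261 and 292 of these nuclei in WT replicates 1 and 2 and KI replicates 1 and 2 were assigned to CA1 pyramidal neurons, so this is not an independent class and no test is given. Pappa in the Fn1 cluster was at 6.85, 4.53 and 10.6 CPM in WT replicates 1 and 2 and KI replicate 1, and at 47.3 CPM in KI replicate 2. The difference did not pass (log2 fold change 2.43 ± 0.65, edgeR adjusted p = 0.10, where 1.95% of genes were called). Its size depended on the KI library: the log2 fold change was 1.03 without KI replicate 2 (edgeR adjusted p = 0.018, where 23.1% of genes were called) and 3.14 without KI replicate 1 (edgeR adjusted p = 5.76e-06, where 9.81% were called). In these fits the lone KI library is assumed to vary like the WT pair. The 9 granule neuron markers summed to 270, 291, 302 and 490 CPM in these libraries, highest in KI replicate 2. The 7 Cajal-Retzius markers summed to 38.0 and 107.6 CPM in WT, against 131 and 202 CPM in KI, and the 8 CA1 markers to 768 and 642 CPM in WT, against 544 and 427 CPM in KI. The part of these lists in the levels of Pappa, Pappa2 and other genes of the cluster was not tested.

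Elsewhere Pappa2 differed less between genotypes. Excitatory neurons named subicular or cortical had the highest WT level, 17.4 and 16.0 CPM, and 19.7 and 24.9 CPM in KI. CA3 pyramidal neurons had 6.02 and 9.18 CPM in WT, against 16.6 and 10.5 CPM in KI (log2 fold change 0.96 ± 0.30, edgeR adjusted p = 0.12). In the 3 CA3 clusters with at least 20 nuclei of every library, the genotypes overlapped, at 4.24 and 9.55 CPM in WT, against 15.6 and 8.35 CPM in KI. Inhibitory neurons had 4.86 to 7.33 CPM, DG granule neurons 3.05 to 5.54 CPM and oligodendrocytes 0.294 to 2.91 CPM. Ordered by the mean over libraries, neighbouring classes down to oligodendrocytes overlapped. The other 4 classes in which Pappa2 passed the low-count filter did not call it.

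Promoter windows from RefSeq (GRCm38.p6) were used for 8 of the 10 genes, and none for Pappa and Stc1. The 250 bases before the start are shown for Pappa2, the gene chosen for its level in CA1, and for Igfbp5 and Stc2, both called lower in granule neurons, 5′ to 3′ on the gene's strand with CG pairs in capitals.
Pappa2, chr1:158958176-158958425, minus strand: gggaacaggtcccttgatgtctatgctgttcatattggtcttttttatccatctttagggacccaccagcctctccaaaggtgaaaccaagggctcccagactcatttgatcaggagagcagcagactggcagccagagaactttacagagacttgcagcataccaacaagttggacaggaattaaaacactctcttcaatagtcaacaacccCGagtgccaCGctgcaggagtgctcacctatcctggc
Igfbp5, chr1:72874866-72875115, minus strand: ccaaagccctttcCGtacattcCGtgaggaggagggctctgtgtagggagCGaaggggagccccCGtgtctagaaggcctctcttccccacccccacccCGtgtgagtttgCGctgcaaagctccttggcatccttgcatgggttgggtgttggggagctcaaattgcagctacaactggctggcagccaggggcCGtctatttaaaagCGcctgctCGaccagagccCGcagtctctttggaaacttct
Stc2, chr11:31370062-31370311, minus strand: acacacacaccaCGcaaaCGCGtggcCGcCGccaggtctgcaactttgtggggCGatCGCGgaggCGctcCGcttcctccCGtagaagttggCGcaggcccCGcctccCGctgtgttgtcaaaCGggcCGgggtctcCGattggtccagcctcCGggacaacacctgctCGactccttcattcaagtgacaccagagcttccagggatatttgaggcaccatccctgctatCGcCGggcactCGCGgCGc
The Pappa2 window had 2 CG pairs, Igfbp5 10 and Stc2 24, against a median of 6 over 32851 windows of the same length (quartiles 2 and 16). A TATA box (TATAAA), the CRE half-site TGACG, an AP-1 site (TGANTCA) and the E-box CACGTG were searched on both strands. None of these letters occurred in the 3 windows, while 12.4%, 17.8%, 6.75% and 6.02% of all windows held them. Of the other members, Igfbp4 held a TATA box at -28 from the start, Igf1 an AP-1 site at -37, 1 of the 4 windows of Igf2 a CRE half-site at -189, and Igf2r CRE half-sites at -200 and -51 and E-boxes at -48 and -7, of which those at -51 and -48 overlap. In the GENCODE M21 annotation of the same genome, Pappa2 spans chromosome 1 from 158711727 to 158980490, so the RefSeq start lies inside the longer gene model, and Pappa spans chromosome 4 from 65124174 to 65357509.

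The classes that supplied the pappalysin UMIs shifted between genotypes. In WT, inhibitory neurons held 53.4% and 52.1% of all Pappa UMIs of a library and DG granule neurons 13.5% and 14.6%. In KI, inhibitory neurons held 20.9% and 18.5%, and DG granule neurons 51.8% and 26.0%. The Fn1 cluster held 26.4% in KI replicate 2 and 5.78 to 7.85% in the other 3 libraries. For Pappa2, CA1 pyramidal neurons held 18.2% and 16.9% in WT and 35.4% and 31.0% in KI, and the Fn1 cluster 11.3%, 8.99%, 37.3% and 34.2%. The total over all nuclei was 657, 501, 1452 and 2300 UMIs of Pappa, or 9.45, 7.56, 21.5 and 31.4 CPM in WT replicates 1 and 2 and KI replicates 1 and 2. Over all nuclei, where 0.875% of genes were called (0.497% higher and 0.378% lower), Pappa rose by 1.69 ± 0.21 on the log2 scale (edgeR adjusted p = 0.038), and the log2 fold change of Pappa2, given without a test, was 1.92 ± 0.22. Igfbp5 was at 28.4 and 29.8 CPM in WT, against 8.34 and 15.2 CPM in KI over all nuclei and did not pass (-1.26 ± 0.26, edgeR adjusted p = 0.077). Numbers of nuclei per class enter these shares.

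**Figure D4:**
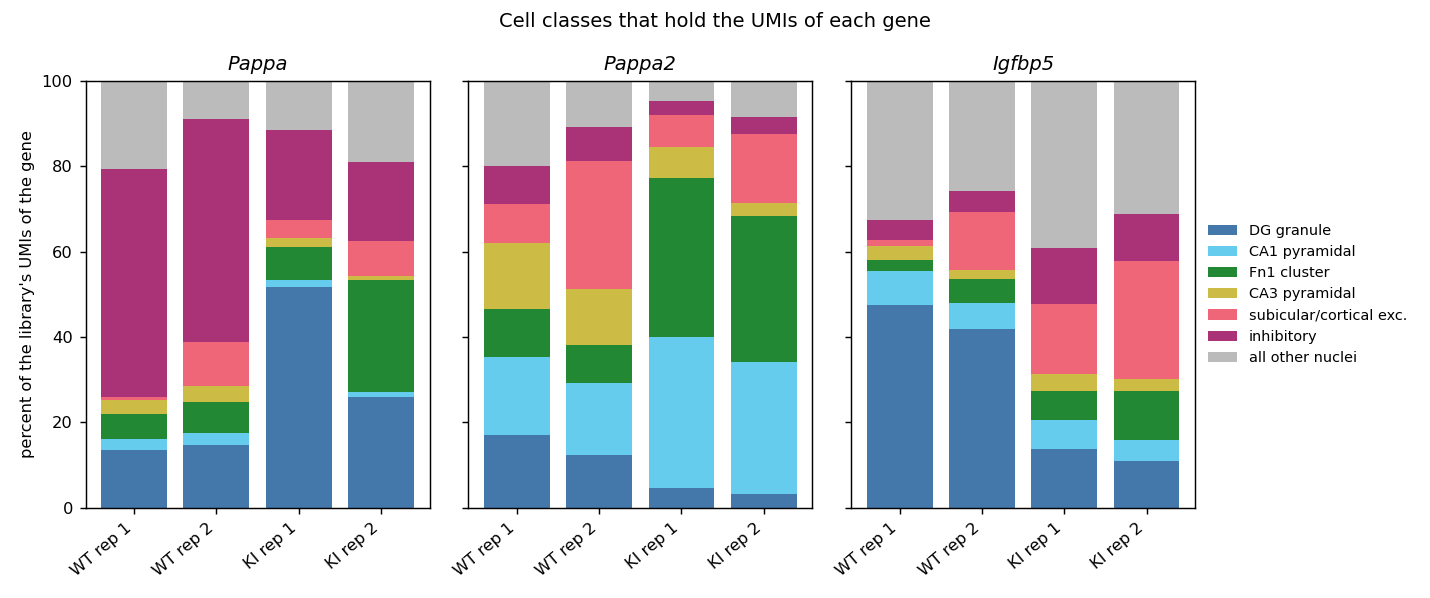
Percent of each library's UMIs of Pappa, Pappa2 and Igfbp5 that lay in each cell class (stacked bars from 0 to 100%, 1 bar per library). The inhibitory part of Pappa goes from 53.4% and 52.1% in WT to 20.9% and 18.5% in KI, and the CA1 and Fn1 cluster parts of Pappa2 are larger in KI.

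Inhibitory neurons taken as 1 class had Pappa at 58.9 and 43.3 CPM in WT, against 44.2 and 51.1 CPM in KI, and the libraries overlapped. Sst interneurons, which target dendrites, had 128.6 and 113.0 CPM in WT, against 96.5 and 106 CPM in KI, a difference that was not tested, and Lamp5 interneurons 108, 53.0, 63.7 and 85.0 CPM. All 4 libraries of each lay above Pvalb interneurons, at 21.6 to 27.1 CPM, which were followed by Vip interneurons at 7.21 to 35.9 CPM. Fibroblasts had 18.9 to 42.5 CPM and astrocytes 10.0 to 19.4 CPM. Oligodendrocytes had 4.11 and 2.40 CPM in WT, against 8.74 and 15.2 CPM in KI, and did not pass (log2 fold change 1.77 ± 0.45, edgeR adjusted p = 0.11, where 0.887% of genes were called).

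Outside DG granule neurons, Stc1 and Stc2 were read at low levels. Stc2 was highest among well-sampled classes in CA2 pyramidal neurons, at 3.50, 5.90, 6.65 and 5.85 CPM from 121 to 190 nuclei. CA3 pyramidal neurons had 0.928 to 2.56 CPM of Stc2 and 0.619 to 1.81 CPM of Stc1. In WT, DG granule neurons held 56.1% and 58.1% of all Stc1 UMIs and 57.6% and 51.0% of all Stc2 UMIs. In KI they held 7.50% and 14.0% of Stc1 and 10.9% and 7.58% of Stc2. No UMI of either gene was read in fibroblasts.

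Both binding proteins had their highest mean level in fibroblasts. Igfbp5 was highest in fibroblasts, at 383 and 426 CPM in WT, against 133 and 260 CPM in KI, followed by astrocytes, at 136, 83.8, 93.5 and 112 CPM. The KI libraries also lay below the WT libraries in glia with a smaller level, without passing. Oligodendrocytes had 38.5 and 52.3 CPM in WT, against 8.45 and 21.5 CPM in KI (log2 fold change -1.70 ± 0.35, edgeR adjusted p = 0.068), and microglia 29.6 and 62.3 CPM in WT, against 8.49 and 14.3 CPM in KI (-1.90 ± 0.52, edgeR adjusted p = 0.56). Libraries of the genotypes did not overlap for 46.3% of all genes in oligodendrocytes and 37.1% in microglia. Granule neurons, the class with the most Igfbp5 UMIs in WT (47.4% and 42.0%), were lower in the same libraries, and the part of free RNA in the glial levels was not tested. By edgeR, 0 genes of any kind were called in fibroblasts, microglia or the subicular or cortical neurons (328, 606 and 1550 genes at an unadjusted p under 0.05), and DESeq2 called 1, 2 and 40. Igfbp4 was highest in fibroblasts, at 14.1 to 72.3 CPM. Among neurons it was at 9.95, 10.2, 11.2 and 18.0 CPM in CA1 pyramidal neurons and 10.2 to 13.4 CPM in inhibitory neurons, and at 2.21 to 2.71 CPM in CA3 pyramidal neurons, below all libraries of both.

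Igf1 came mainly from inhibitory neurons, which held 79.1% and 76.3% of its UMIs in WT and 70.8% and 76.8% in KI. They had 113, 111, 148 and 109 CPM, while DG granule and CA1 and CA3 pyramidal neurons had 0.452 to 2.53 CPM. Within interneurons, Vip cells, which inhibit other interneurons, had 218, 267, 372 and 236 CPM, and an inhibitory group without a subtype name 319, 271, 292 and 203 CPM. All libraries of these groups lay above those of Cnr1, Lamp5 and Sst interneurons, at 75.3 to 171 CPM, and Pvalb interneurons were lowest at 16.2 to 30.6 CPM. Perivascular macrophages had 64.7, 330, 151 and 47.2 CPM, but from only 16 to 31 nuclei per library, and microglia 6.79 to 10.8 CPM. In inhibitory neurons, where 1.18% of genes were called, Igf1 did not pass (log2 fold change 0.30 ± 0.16, edgeR adjusted p = 0.32).

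Igf2 was highest in fibroblasts, at 45.9 and 112 CPM in WT, against 56.8 and 80.8 CPM in KI, and the genotypes overlapped. These values rest on 6, 24, 12 and 19 UMIs, and fibroblasts held 12.5%, 53.3%, 50.0% and 43.2% of all Igf2 UMIs of WT replicates 1 and 2 and KI replicates 1 and 2. In DG granule neurons Igf2 was at 0.252 to 0.415 CPM, in CA1 pyramidal neurons at 0.0856 to 0.355 CPM and in inhibitory neurons at 0 to 0.481 CPM. CA2 pyramidal neurons, committed OPC and perivascular macrophages had no UMI.

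The receptors were read widely. Igf1r was highest in endothelial cells, at 3571, 2879, 2953 and 2946 CPM, all above every other class, although these libraries held 12 to 38 endothelial nuclei. Among neurons it was highest in CA2 pyramidal neurons, at 279 to 394 CPM, and lowest in CA1 pyramidal neurons, at 68.4 to 93.8 CPM. Igf1r was lower in KI without passing in CA3 pyramidal neurons, at 230 and 218 CPM in WT, against 133 and 177 CPM in KI (log2 fold change -0.46 ± 0.13, edgeR adjusted p = 0.092, where 3.55% of genes were called), and in inhibitory neurons, at 120 and 122 CPM in WT, against 82.2 and 96.2 CPM in KI (-0.34 ± 0.11, edgeR adjusted p = 0.15). The CA3 clusters were split by genotype. In the 3 of them with at least 20 nuclei of every library, Igf1r was at 181 and 189 CPM in WT, against 155 and 182 CPM in KI, and the genotypes overlapped. Igf2r was highest in mural cells, at 70.9 to 264 CPM, and fibroblasts, at 59.6 to 178 CPM, and was between 8.43 and 54.3 CPM in every neuronal class.

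**Figure D5:**
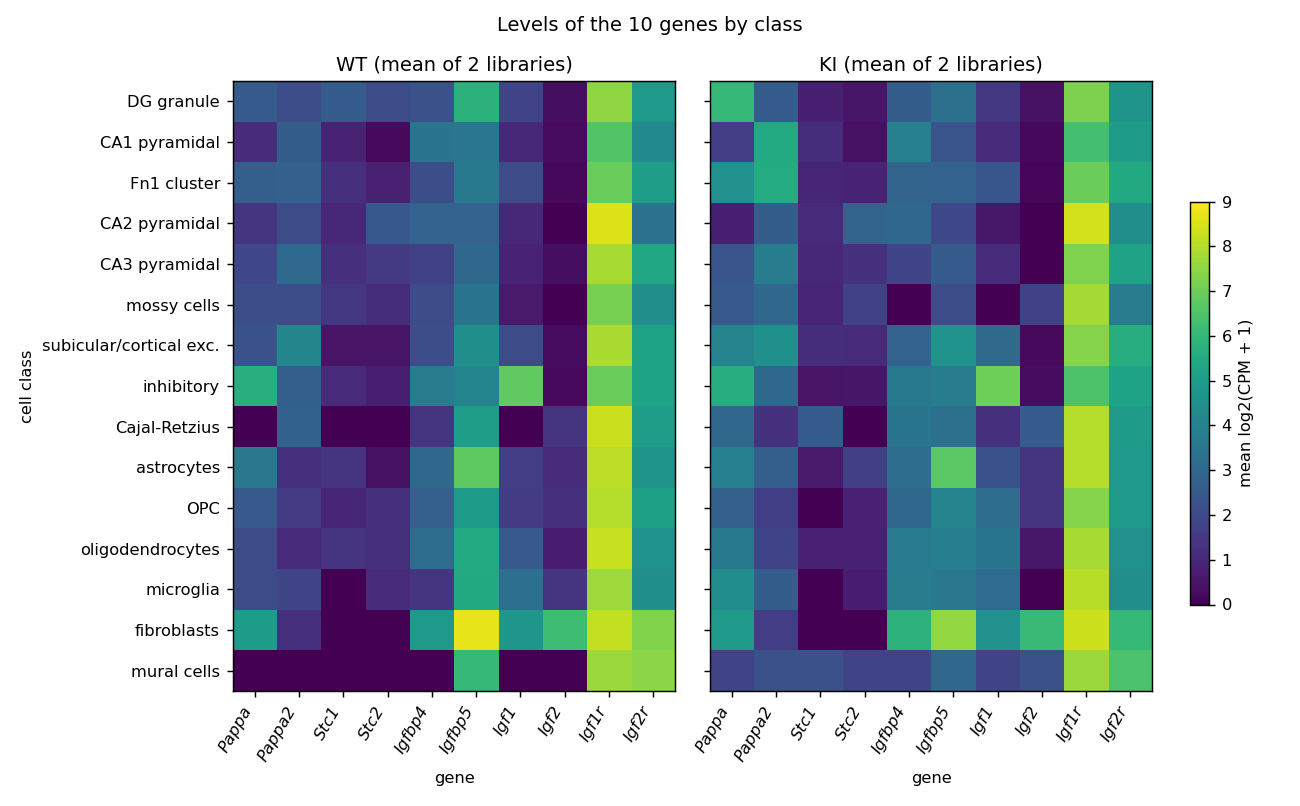
Mean log2(CPM + 1) of the 10 genes (columns) in 15 cell classes (rows), for WT (left) and KI (right), each the mean of 2 libraries. Pappa in DG granule neurons and Pappa2 in CA1 pyramidal neurons and the Fn1 cluster are brighter in KI, Igf1 stands out in inhibitory neurons, and Igf1r is bright in all classes.

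Of the other IGF genes, 2 lists were examined: 13 further binding proteins, receptors and proteases, and 39 genes of signalling below the receptors. In DG granule neurons, 1 of the 10 tested genes of the shorter list was called higher and 0 lower (median log2 fold change 0.35), and 1 of the 36 tested signalling genes was called higher and 2 lower (median -0.06). With 9.73% of all genes called in this class, these counts are near the background and are no result about the lists, and the called genes are given by their values. Igfbp6, a binding protein with a preference for IGF2, was at 1.81 and 2.32 CPM in WT, against 9.31 and 10.99 CPM in KI (log2 fold change 2.43 ± 0.23, edgeR adjusted p = 0.0040). Grb14, an adaptor that restrains insulin receptor signalling, was at 199 and 204 CPM in WT, against 32.8 and 57.5 CPM in KI (-2.04 ± 0.23, edgeR adjusted p = 0.0058). Irs2, a docking protein of the insulin and IGF1 receptors, was at 33.2 and 32.6 CPM in WT, against 16.3 and 18.5 CPM in KI (-0.79 ± 0.13, edgeR adjusted p = 0.017). Pik3r3, a regulatory subunit of PI3-kinase, was at 55.3 and 56.7 CPM in WT, against 69.4 and 75.2 CPM in KI (0.50 ± 0.10, edgeR adjusted p = 0.031). The calls of Irs2 and Pik3r3 were lost when either WT library was left out, where calls over all genes of the class also fell far.

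In CA3 pyramidal neurons, 0 of 8 members and 0 of 8 genes of the shorter list passed by edgeR, and no member by DESeq2, with Igf1r and Pappa2 at unadjusted p of 0.0066 and 0.011, and 1 of 36 signalling genes was called higher and 2 lower, where 2.22% of all genes were called higher and 1.33% lower. Irs1, the other main docking protein, was at 41.5 and 42.9 CPM in WT, against 16.2 and 26.3 CPM in KI (-0.93 ± 0.20, edgeR adjusted p = 0.042). Shc3, a neuronal adaptor, was at 65.6 and 51.8 CPM in WT, against 32.2 and 31.4 CPM in KI (-0.80 ± 0.17, edgeR adjusted p = 0.035). Pik3r1 was at 19.0 and 17.8 CPM in WT, against 27.5 and 31.9 CPM in KI (0.77 ± 0.17, edgeR adjusted p = 0.041). Leaving out WT replicate 1 ended all 3 calls, and leaving out WT replicate 2 ended those of Irs1 and Pik3r1. Calls over all genes of the class also fell in both fits. These 3 changes are over a class whose clusters were split by genotype. In its 3 clusters with at least 20 nuclei of every library, Irs1 was at 57.2 and 40.3 CPM in WT, against 22.6 and 35.7 CPM in KI, Pik3r1 at 33.4 and 31.3 CPM in WT, against 48.4 and 50.1 CPM in KI, and Shc3 at 61.4 and 52.0 CPM in WT, against 67.2 and 43.3 CPM in KI. In mossy cells, where 1.14% of genes were called, Gab1 was at 80.5 and 59.1 CPM in WT, against 21.9 and 24.3 CPM in KI (-1.52 ± 0.37, edgeR adjusted p = 0.036). Without WT replicate 1 this had adjusted p = 0.56 and without KI replicate 1 adjusted p = 0.096. In the Fn1 cluster, where 1.95% of genes were called, Igfbpl1 was at 0.902 and 0.367 CPM in WT (5 and 3 UMIs), against 10.4 and 5.30 CPM in KI (112 and 68 UMIs), with a log2 fold change of 3.77 ± 0.58 (edgeR adjusted p = 0.032). The log2 fold change was 4.44 without WT replicate 1, 3.14 without WT replicate 2, 3.18 without KI replicate 1 and 4.21 without KI replicate 2. Igfbpl1 passed the low-count filter only through the KI libraries, where it was high, so its adjusted p is not read as support. In CA1 pyramidal neurons, 1 of 10 genes of the shorter list and 3 of 36 signalling genes were called, near the 7.58% of all genes called in the contrast that chose the members, and nothing is read from these counts. Of these genes, given without a test, Htra1, a protease that also cuts IGF-binding proteins, was at 15.99 and 14.97 CPM in WT, against 23.8 and 29.7 CPM in KI, Irs2 at 29.2, 27.98, 15.1 and 17.0 CPM, Foxo1 at 8.53, 8.56, 3.13 and 4.29 CPM and Ptpn1 at 118, 119.9, 74.2 and 84.1 CPM.

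Genes with the most alike pattern were ranked by Pearson's r of log2(CPM + 1) over 64 values, 4 libraries of 16 classes, which share libraries and depth. For Pappa2 they were Map3k9 (r = 0.75), Thpo (0.73), Slc26a8 (0.71), A230006K03Rik (0.68) and Dzank1 (0.68). For Igf1 they were Mageb18 (0.79), Gm15655 (0.77), Gad2 (0.77), Alk (0.74) and Nxph2 (0.74). For Igf2 they included Slc47a1 (0.84), Slc22a6 (0.83), Wfdc1 (0.82) and Bnc2 (0.82), of which Slc22a6 and Bnc2 served as fibroblast markers. For Igfbp5 they included Chchd2 (0.83), Tmbim6 (0.82), Cox5a (0.78) and Rpl12 (0.78).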

How the data were processed

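Nuclei from frozen hippocampi were profiled with 10x 3' libraries, 1 per mouse. The authors deposited UMI counts per gene and barcode, made with Cell Ranger 7.0.1 (per the file headers) against mm10 (per the submitters' processing notes). Doublets were scored per library, and nuclei with under 500 genes, over 5% mitochondrial counts or a doublet score over 0.25 were left out: 345 by genes or mitochondria and 3279 as doublets. The rest were clustered with scanpy 1.11.5 and leidenalg 0.10.2 (30 components, 20 neighbours, resolution 0.5) on 1991 variable genes, without the IGF genes, and clusters were named from marker lists. Raw counts were summed per library and class and tested with edgeR 4.0.16 (quasi-likelihood, TMM factors, filterByExpr, Benjamini-Hochberg over all genes, threshold 0.05) in R 4.3.3, with DESeq2 1.42.0 as an alternative. Each group had 2 mice. On simulated counts for DG granule neurons, with 200 genes changed by a log2 fold of 2 among 16300, edgeR called 200 of the 200 and 7 others. The simulation gave both genotypes the same spread and changed only genes with enough counts. It therefore does not cover the wider spread of the KI libraries or genes with few UMIs. The members and gene lists were chosen with earlier results of these data known. The 10 members are named throughout, and other listed genes where they passed the threshold in a class. Sequences came from RefSeq windows (GRCm38.p6) and spans from GENCODE M21. No value columns of other samples were found. Intervals are exact binomial. Alternatives were library totals, DESeq2, no low-count filter, each library left out, a replicate block, doublets kept, a minimum of 1000 genes, and nuclei assigned one by one from their own markers. Some genes with a like pattern are not reported here.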

Additional observations from a re-analysis of the deposited data

Results flagged for a closer look

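For 3 genes the genotype effect differed between cell classes by the class-by-genotype term over all genes. The log2 fold change of Pappa in DG granule neurons exceeded that in CA3 pyramidal neurons by 3.09 and that in inhibitory neurons by 3.79. For Igfbp5 the differences were -1.91 and -2.18. For Stc1 the difference between DG granule neurons and CA3 pyramidal neurons was -2.38, from 3 and 13 UMIs in the KI granule neurons, and it did not pass whichever library was left out (edgeR adjusted p = 0.061 to 0.214) or with doublets kept (0.054). With nuclei assigned one by one, the Pappa difference from CA3 pyramidal neurons was 1.28 and did not pass (edgeR adjusted p = 0.12). That assignment placed 600 nuclei of the DG granule clusters in CA3.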

How the results depend on the processing

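Of 14 fold changes past the threshold, tried under 152 settings in all, 126 stayed past it, 26 did not and 0 reversed. Counts here leave out CA1 pyramidal neurons and Pappa2 in the Fn1 cluster and over all nuclei, where the values chose the genes or share nuclei with those that did. Within the other classes, 4 calls among the 10 genes became 12 with no low-count filter, 7 with nuclei assigned one by one and 3 to 21 with a library left out. Over all nuclei, 1 call became 3 with DESeq2, 2 with no low-count filter and 2 to 5 with a library left out. For the further IGF genes, 9 calls became 30 with no low-count filter and 4 to 82 with a library left out. With a library left out, 1 library of a group remains, and nothing is read from those counts. The share of all genes called also moved with the setting. With no low-count filter it went from 9.73% to 13.1% in DG granule neurons and from 3.55% to 7.19% in CA3 pyramidal neurons. It fell in OPC, mossy cells and Cajal-Retzius cells. With nuclei assigned one by one it was 9.37% and 1.36% in DG granule and CA3 pyramidal neurons. Over all nuclei it went from 0.875% to 9.13% with DESeq2 and to 2.46% with no low-count filter. Counts with a library left out were highest without a KI library, as were the shares in DG granule neurons and over all nuclei. There the lone KI library is assumed to vary like the WT pair. The KI replicates differed more than the WT replicates in all 16 classes. The chi-square per degree of freedom between replicates grows as they differ beyond counting error. It was 2.44 in WT and 14.1 in KI in DG granule neurons, and 16.3 and 46.7 over all nuclei. The part of this spread in the calls was not tested. The class with the highest mean was kept for 6 of 10 genes with nuclei assigned one by one. The log2 fold change of Igf1 in DG granule neurons, which passed no threshold, was -0.31 and ranged from -0.79 to 0.025 with a library left out, reversing without KI replicate 2.

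The labels tie no pairs of samples to a shared litter or day, and with 2 pairs the replicate numbers were not taken as pairs. The correlation of replicate differences was 0.060 over all nuclei and -0.095 to 0.206 over the 16 classes (-0.049 in DG granule neurons, highest in mural cells). With the replicate block, calls among the 10 genes numbered 9 within classes and 2 over all nuclei, and those among the further IGF genes 22. The share of all genes called went from 9.73% to 14.6% in DG granule neurons and from 1.95% to 13.3% in the Fn1 cluster. Over all nuclei it went from 0.875% to 6.84%, and it fell only in Cajal-Retzius cells. Low UMI counts limit Stc1, Stc2 and Igf2 in every class, and 2 mice per genotype limit every test.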
